A study of Mus musculus with 54 samples.

Results

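Male germ cells replace several housekeeping enzymes of sugar breakdown and respiration with isozymes of their own, and 9 of the genes that encode such enzymes are described here: Hk1, Aldoart1, Aldoart2, Gapdhs, Pgk2, Pgam2, Ldhc, Pdha2 and Cyct. They were chosen by symbol as textbook germ cell or sperm isozymes of energy metabolism, and all 9 were found among the 23284 genes of each of the 2 deposited count tables. All 9 passed the low-count filter in every comparison. Hk1 and Pgam2 are the exceptions to a strictly germ cell pattern, since hexokinase 1 is made in most tissues and PGAM2 is also the muscle form. The study asked how CTCF, a zinc finger protein that organises chromosome loops, and its testis-specific paralog BORIS (gene symbol Ctcfl) act together in spermatogenesis. RNA was sequenced from C57BL/6 males aged 3 months of 4 genotypes. WT mice carry both genes intact (Ctcf+/+Boris+/+). CTCF HET mice lack 1 Ctcf allele (Ctcf+/-Boris+/+), and in BORIS KO mice both Boris alleles are deleted (Ctcf+/+Boris-/-). The compound mutant CM, called DKO in the labels, combines these changes (Ctcf+/-Boris-/-). The alleles are germline knockouts present in every cell, so somatic cells of the testis carry them too, and no group lacks CTCF. Germ cell-enriched suspensions of whole testis gave 3 libraries per genotype, and sorted round spermatids and spermatocytes also gave 3 each, save that WT spermatocytes have 2, which makes 35 libraries. Each germ cell preparation of whole testis pooled 4 mice. The sorted fractions were stated to be 93.7% pure for round spermatids and 81.5% for spermatocytes.

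Glycolysis turns glucose into pyruvate, and the last enzymes of the chain return ATP. In the sperm tail this chain is anchored to the fibrous sheath and supplies ATP for movement far from the mitochondria. Lactate dehydrogenase interconverts pyruvate and lactate, the pyruvate dehydrogenase complex feeds pyruvate to the mitochondrion, and cytochrome c carries electrons in the respiratory chain. Pgk1 and Pdha1 lie on the X chromosome, which is silenced in meiosis, and their germ cell counterparts Pgk2 and Pdha2 are autosomal copies without introns.

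On the mm9 assembly and its GENCODE annotation, 4 of the 9 genes consist of 1 exon: Pgk2 (chr17:40343963-40345554, minus strand), Pdha2 (chr3:140872968-140875319, minus), Aldoart1 (chr4:72511755-72513668, minus) and Aldoart2 (chr12:56666226-56667883, plus). The other 5 have introns: Hk1 (chr10:61731603-61842656, minus), Gapdhs (chr7:31514799-31528700, minus), Pgam2 (chr11:5701643-5703736, minus), Ldhc (chr7:54116573-54133512, plus) and Cyct (chr2:76191999-76198507, minus). Both aldolase genes resemble Aldoa closely. Their coding sequences were 94.4% (Aldoart1) and 91.8% (Aldoart2) identical to that of Aldoa, and 89% identical to each other. The other members were further from their somatic relatives, from 79.3% for Pgk2 and Pgk1 down to 72.1% for Hk1 and Hk2. Over stretches of 75 bases, the read length of the sorted cell libraries, 8 of the 9 members had no second copy anywhere in the genome. Aldoart1 had one for 0.38% of its stretches, and it shared 1.03% of them with transcripts of Aldoa. Reads of that length without mismatches could thus nearly all be placed. Reads of whole testis, which was sequenced by another method, were not examined in this way.

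The sequences shown first are those upstream of Gapdhs, Hk1 and Pgk2, which fell in CM whole testis and hold a motif that was searched for, and of Ldhc, the most abundant member of sorted cells. Those under some of the CTCF peaks near members follow. The promoter sequences come from RefSeq (GRCm38.p6), in which 8 of the 9 members have an entry, and were matched to mm9. Each runs 5′ to 3′ on the strand of the gene and ends at the base before the RefSeq start, except for Ldhc, which ends before its earliest annotated exon. Capitals mark TGACATCA or its reverse complement in Gapdhs and Hk1, CCAAT in Pgk2 and GGGCGG in Ldhc.
Gapdhs, start at chr7:31528700, minus strand: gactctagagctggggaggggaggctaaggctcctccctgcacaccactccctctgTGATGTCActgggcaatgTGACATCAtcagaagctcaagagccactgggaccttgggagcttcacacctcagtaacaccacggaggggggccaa
Gapdhs, internal start at chr7:31524426, minus strand: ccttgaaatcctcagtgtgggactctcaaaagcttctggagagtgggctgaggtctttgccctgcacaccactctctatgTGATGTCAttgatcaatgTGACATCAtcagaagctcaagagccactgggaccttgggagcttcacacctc
Hk1, start at chr10:61842656, minus strand: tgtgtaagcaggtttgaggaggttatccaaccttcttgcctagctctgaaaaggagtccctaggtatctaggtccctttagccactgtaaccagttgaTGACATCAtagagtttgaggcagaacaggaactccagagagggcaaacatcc
Pgk2, start at chr17:40345554, minus strand: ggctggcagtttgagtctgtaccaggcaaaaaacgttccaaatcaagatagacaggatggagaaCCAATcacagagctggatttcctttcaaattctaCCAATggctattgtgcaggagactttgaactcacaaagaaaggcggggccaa
Ldhc, start at chr7:54116633, plus strand: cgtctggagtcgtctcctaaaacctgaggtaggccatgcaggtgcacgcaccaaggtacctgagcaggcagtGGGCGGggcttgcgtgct

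Gapdhs has 2 annotated starts, and the windows before them share an identical run of 57 bases that includes TGACATCA. Each of these windows also holds that octamer on the opposite strand. Among the members with an entry, Gapdhs and Hk1 held TGACATCA, a variant of the cyclic AMP response element, against 2.32% of 32851 RefSeq promoters of the same length. This octamer was added to the search after the sequences had been read. The other motifs were TGACG, held by Ldhc and by 13.3% of promoters, CCAAT, held by Pgk2 and Cyct and by 24.5%, GGGCGG, held by Ldhc and by 28.6%, TATAAA, held by Pdha2 and by 7.57%, and CNAGGNGGC, a CTCF core, held by no member and by 4.75%. The first TGACG of Ldhc began at the last printed base and ran into its annotated exon, and the second lay within that exon. Both strands were searched, and the letters say nothing of whether a factor binds. Pgam2 and Aldoart2 held none of the 6. Aldoart1 has no entry.

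In the next 4 windows, each 121 bases centred on a CTCF summit in WT germ cells (mm9), capitals mark AGNNGGC or its reverse complement, the central letters of the CTCF motif. Such a match was present around 69.5% of the 34625 WT summits and 78% of the 21525 CM summits. The windows of Aldoart2, Cyct and Hk1 near its end lie under peaks that were also listed in CM, and the last, within Hk1, under a peak that was not. The last is labelled near the start only in relation to the other Hk1 window. Its summit lies 20854 bases inside the gene from the annotated start, outside the promoter.
Aldoart2, chr12:56665657-56665777, plus strand: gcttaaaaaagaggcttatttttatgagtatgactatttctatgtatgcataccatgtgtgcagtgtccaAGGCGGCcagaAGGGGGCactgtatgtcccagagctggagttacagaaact
Cyct, chr2:76200332-76200452, minus strand: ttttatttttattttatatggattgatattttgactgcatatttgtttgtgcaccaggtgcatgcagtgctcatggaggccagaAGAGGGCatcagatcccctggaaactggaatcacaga
Hk1 near its end, chr10:61738089-61738209, minus strand: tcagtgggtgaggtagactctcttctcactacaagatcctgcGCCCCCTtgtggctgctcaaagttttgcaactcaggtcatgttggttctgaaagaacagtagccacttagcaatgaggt
Hk1 near its start, chr10:61821742-61821862, minus strand: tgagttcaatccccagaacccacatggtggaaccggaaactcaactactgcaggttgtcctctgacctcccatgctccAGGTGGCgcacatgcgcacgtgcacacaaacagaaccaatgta

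The targeted genes were examined as a check of the labels. Levels are given as CPM, counts scaled to a common library total. In whole testis Ctcf stood at 40.9 to 45.1 CPM in WT and 30.7 to 38.8 in BORIS KO, and at 23.0 to 30.4 in CTCF HET and 24.3 to 26.9 in CM. No mutant group overlapped WT, and the Ctcf+/- groups also lay below BORIS KO, which is Ctcf+/+. In sorted cells the Ctcf level did not separate Ctcf+/- groups from WT: CM round spermatids ranged from 39.8 to 177 CPM against 29.6 to 49.7 in WT, and CTCF HET spermatocytes from 31.3 to 50.5 against 32.0 to 33.8. Ctcfl was at 0.509 to 0.712 CPM in WT whole testis and 0.165 to 0.402 in BORIS KO, and at 2.90 to 5.11 and 2.12 to 2.46 CPM in round spermatids of these genotypes, so the libraries labelled BORIS KO still had counts. Whole testis libraries held between 10437683 and 42055813 counts, round spermatid libraries between 47740650 and 98545423, and spermatocyte libraries between 53337530 and 88946702. Fewer genes had a count in CTCF HET spermatocytes (12018 to 13406), CM spermatocytes (14145 to 16666) and CM round spermatids (14932 to 16670) than in the other sorted libraries (17504 to 18978). The 34 pairs of libraries within a group all differed by more than counting noise. For the sorted cells nothing says that the libraries came from separate mice, so p-values measure the spread between libraries, which may be technical.

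In WT whole testis the members together took 9534 to 11935 CPM, and Ldhc and Gapdhs led. Levels of different genes are compared as RPKM, which is CPM divided by the exon length in kilobases. Ldhc stood at 1956 ± 729 RPKM (SD, n = 3), Gapdhs at 1745 ± 42.7, Pgk2 at 1202 ± 59.1, Pgam2 at 572 ± 277, Aldoart2 at 328 ± 19.6 and Hk1 at 233 ± 8.81, while Pdha2, Cyct and Aldoart1 lay between 54.0 and 60.5 on average. Ldhc overlapped Gapdhs, Pgam2 overlapped Aldoart2, and the last 3 overlapped each other, so their places in the order are not settled. The exon length used for Hk1, 8532 bases, joins the exons of 21 transcripts, while its transcript with the longest coding sequence has 3726 bases. The place of Hk1 in each preparation therefore depends on the length used. In WT round spermatids Ldhc led again at 2467 ± 134 RPKM, followed by Pgam2 at 472 ± 46.4 and Cyct at 319 ± 23.2, and Aldoart1 and Aldoart2 were the neighbours that overlapped. In WT spermatocytes, with 2 libraries, Ldhc reached 3329 RPKM and Cyct 819, and Gapdhs, Aldoart2 and Aldoart1 closed the order at 3.94, 1.09 and 0.593. Whole testis and sorted cells were sequenced by different methods, so levels are not compared across them.

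Between WT spermatocytes and WT round spermatids, the only stages compared, the members split into genes higher in one fraction and genes higher in the other. All 9 members were called between the 3 round spermatid and 2 spermatocyte libraries (edgeR's quasi-likelihood test, Benjamini-Hochberg adjusted over 16052 genes). In round spermatids 5 were higher and 4 lower. Of all genes, 35.8% were called higher and 34.2% lower. The log2 fold changes of the members ran from -1.50 to 6.59 with a median of 1.46, against 0.02 for all genes. As a check of the stages, 8 of 8 spermatid markers such as Prm1 and Tnp1 were higher in round spermatids. Of 6 tested spermatocyte markers 4 were lower but Dmc1 was higher, and 5 of 7 spermatogonial markers were also higher in round spermatids (median log2 fold change 2.80). Their part in the members' differences was not tested.

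The aldolase genes and Gapdhs had the widest differences of the 9. Aldoart1 rose from 1.01 and 1.12 CPM in the spermatocyte libraries to 97.3 to 108 CPM in round spermatids, a 96.4-fold difference (log2 6.59, adjusted p = 1.18e-07). Gapdhs, the dehydrogenase of the sperm fibrous sheath, rose from 5.73 and 5.74 CPM to 246 to 290.0 CPM, or 46.8-fold (log2 5.55, adjusted p = 1.25e-07). Aldoart2 rose from 1.68 and 1.71 CPM to 64.6 to 91.8 CPM, or 44.2-fold (log2 5.47, adjusted p = 8.42e-07). Hk1 and Pgk2 rose less. Hk1 went from 246 and 266 CPM to 831 to 1040.3 CPM (3.53-fold, adjusted p = 1.3e-05). Pgk2 went from 138 and 139.6 CPM to 371 to 399 CPM (2.75-fold, adjusted p = 5.28e-06).

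The mitochondrial members were higher in spermatocytes. Pdha2, the catalytic subunit of pyruvate dehydrogenase, fell from 223 and 227 CPM to 75.1 to 85.1 CPM in round spermatids (2.83-fold lower, adjusted p = 6.14e-06). Cyct, the testis cytochrome c, fell from 465 and 541 CPM to 177 to 207 CPM (2.64-fold lower, adjusted p = 2.06e-05). Ldhc and Pgam2 fell slightly, by 0.47 and 0.49 on the log2 scale (adjusted p = 0.00331 and 0.00469), and without WT spermatocyte replicate 2 Pgam2 lost its call at an adjusted p of 0.0507. Pdha1, the somatic X-linked subunit, was listed at 0 in both WT spermatocyte libraries. The 9 other germ cell isoforms of energy metabolism split in the same numbers, 5 higher and 4 lower. Among these, Atp1a4, the sodium pump of the sperm tail, was higher by 5.11 and Gykl1, a glycerol kinase-like gene, by 1.40 on the log2 scale, while Cox8c, a subunit of cytochrome oxidase, was lower by 2.04 and Slc25a31, the germ cell ADP/ATP carrier, by 1.22.

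**Figure D1:**
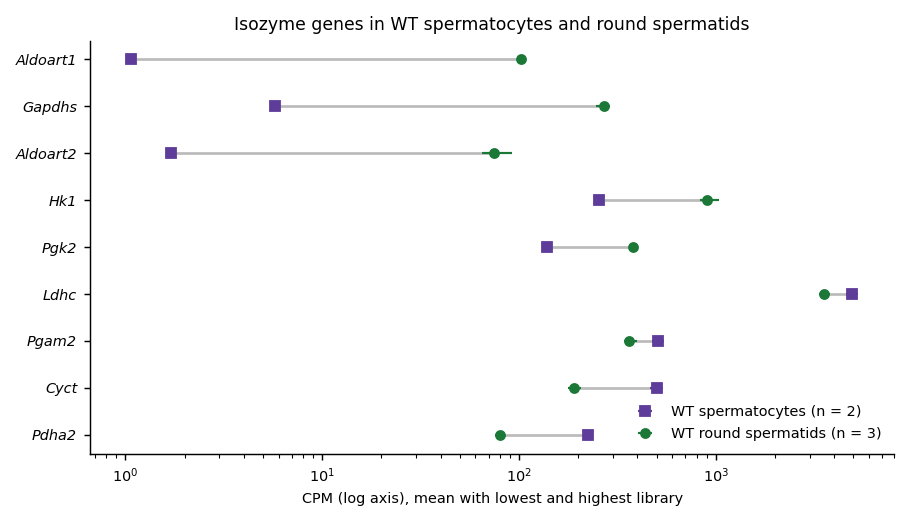
Level in CPM on a log axis for each member in WT spermatocytes (squares, 2 libraries) and WT round spermatids (circles, 3 libraries), with points at the mean and bars from the lowest to the highest library. Aldoart1, Gapdhs and Aldoart2 lie below 6 CPM in spermatocytes and above 60 CPM in round spermatids, while Pdha2, Cyct, Pgam2 and Ldhc lie further to the right in spermatocytes.

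In whole testis of the compound mutant 5 glycolytic members, Hk1, Aldoart1, Aldoart2, Gapdhs and Pgk2, fell against WT, by 1.97-fold to 3.3-fold, and none of the 9 rose. Of all 16378 genes tested, 8.8% were called lower and 16.4% higher. The median log2 fold change of the members was -1.14 and that of all genes was 0.00.

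Hk1, which traps glucose in the cell by phosphorylation, was at 2076, 1945 and 1948 CPM in WT and at 626, 706 and 493 CPM in CM. The CTCF HET libraries held 2152, 1746 and 1956 CPM and the BORIS KO libraries 1659.7, 1499 and 1375 CPM, so CM lay below all 9 other libraries. Hk1 fell 3.3-fold in CM (log2 -1.72 ± 0.25 SE, adjusted p = 0.0151, edgeR).

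The aldolases split the sugar phosphate into trioses. Aldoart1 was at 124, 109 and 76.9 CPM in WT and 35.7, 48.2 and 37.3 CPM in CM (log2 -1.36, adjusted p = 0.0161). Aldoart2 was at 578, 514 and 538 CPM in WT and 322, 276 and 236 CPM in CM (log2 -0.98, adjusted p = 0.0205). In neither gene did CM overlap WT, CTCF HET or BORIS KO.

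Gapdhs, the next enzyme of the chain, stood at 2666, 2679.6 and 2787 CPM in WT and at 878, 1022 and 973 CPM in CM. BORIS KO libraries lay between, at 2141, 1816 and 2211 CPM. Gapdhs fell 2.86-fold in CM (log2 -1.52, adjusted p = 0.0151). Pgk2, which makes the first ATP of the chain, stood at 1959.6, 1975 and 1805 CPM in WT and 549, 1153 and 917 CPM in CM, a 2.21-fold fall (log2 -1.14, adjusted p = 0.0301). Neither gene overlapped between CM and any other genotype. Every CM library lay below every BORIS KO library in 14.1% of all genes tested, and the matching share against WT is not given here.

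The calls in CM whole testis depended on single libraries. Without WT replicate 2, WT replicate 3 or CM replicate 3 none of the 9 members was called, with adjusted p between 0.0572 and 0.105 for the 5 genes, although their log2 fold changes stayed between -1.75 and -0.82. Without WT replicate 1 only Hk1, Aldoart1 and Gapdhs were called.

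The remaining members varied with the replicate number. Ldhc, the sperm lactate dehydrogenase, was at 1770.5 CPM in WT replicate 1 and 3612 and 3888 in the others, and at 515, 2954 and 2764 CPM in CM. Pgam2 was at 223, 542 and 677 CPM in WT and 34.2, 241 and 309.9 CPM in CM, and Pdha2 at 97.2, 152 and 178 against 42.1, 119 and 129.6 CPM. For these 3 genes replicate 1 was the lowest library in every genotype.

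CM overlapped WT in Ldhc, Pgam2, Pdha2 and Cyct, and none of them was called (log2 fold changes of -0.59, -1.32, -0.57 and -0.31). In whole testis the replicate numbers pair the libraries, and with the number as a block Pgam2 fell by 1.67 (adjusted p = 0.00214) and Pdha2 by 0.68 on the log2 scale (adjusted p = 0.0326), which makes 7 members called, and 7043 genes in place of 4135. With replicate 1 of every group left out, an alternative chosen after seeing the data, Pgam2 was also called (log2 -1.16, adjusted p = 0.00428) and 6 members were called. In that fit 4913 of all genes were called. Cyct had 20.2, 36.4 and 31.3 CPM in CM against 38.8, 32.1 and 36.7 in WT.

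Neither CTCF HET nor BORIS KO had a member called in whole testis. In CTCF HET 0 of 9 members were called by edgeR or by DESeq2, and 0.00621% of all genes were called by edgeR. An unadjusted p under 0.05 was found in 0 members and in 424 of 16097 genes. Pgk2 was the exception to overlapping ranges, at 1545, 1625 and 1694 CPM against 1805 to 1975 in WT (log2 -0.24). In BORIS KO 0 of 9 were called by either tool. An unadjusted p under 0.05 was found in 3 members (Hk1, Gapdhs and Pgk2) and in 2717 of 16344 genes. With the replicate block Hk1 was called (adjusted p = 0.0494), and 1077 genes in place of 9. All 9 log2 fold changes were below 0, from -0.46 to -0.09, and 5 of the 9 genes had every BORIS KO library below every WT library, as had 10% of all genes tested, while 0.0551% of all genes were called.

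The comparison of CM with BORIS KO isolates the loss of 1 Ctcf allele where BORIS is absent. Every member was lower in CM on average, from -1.34 in Hk1 to -0.08 in Cyct on the log2 scale, with a median of -0.77. In Hk1, Aldoart1, Aldoart2, Gapdhs and Pgk2 every CM library lay below every BORIS KO library, as in 14.1% of all genes tested. None of the 9 was called by edgeR (0.006% of all genes were). An unadjusted p under 0.05 was found in 5 members and in 3594 of all 16655 genes. DESeq2 called 3 members and 1134 genes. With the replicate block 3 members were called, Hk1 (adjusted p = 0.0313), Aldoart1 (0.0374) and Gapdhs (0.0415), and 1225 genes in place of 1. Without CM replicate 2 Hk1 and Gapdhs were called (adjusted p = 0.0361 and 0.0472), and the share of all genes called in that fit is not given here. Whether the 2 mutations together exceed the sum of their separate effects was tested as an interaction. It was negative in 8 of 9 members, from -1.28 in Hk1 to -0.49 in Ldhc, and 0.04 in Cyct. No member passed the adjusted threshold in edgeR and 0% of 17185 genes did. An unadjusted p under 0.05 was found in 3 members (Hk1, Gapdhs and Aldoart2) and in 1713 of all genes. DESeq2 called Hk1 (log2 -1.29, adjusted p = 0.0067) and Gapdhs (adjusted p = 0.0242), and 29 genes in all. These comparisons share libraries and are not independent of one another.

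**Figure D2:**
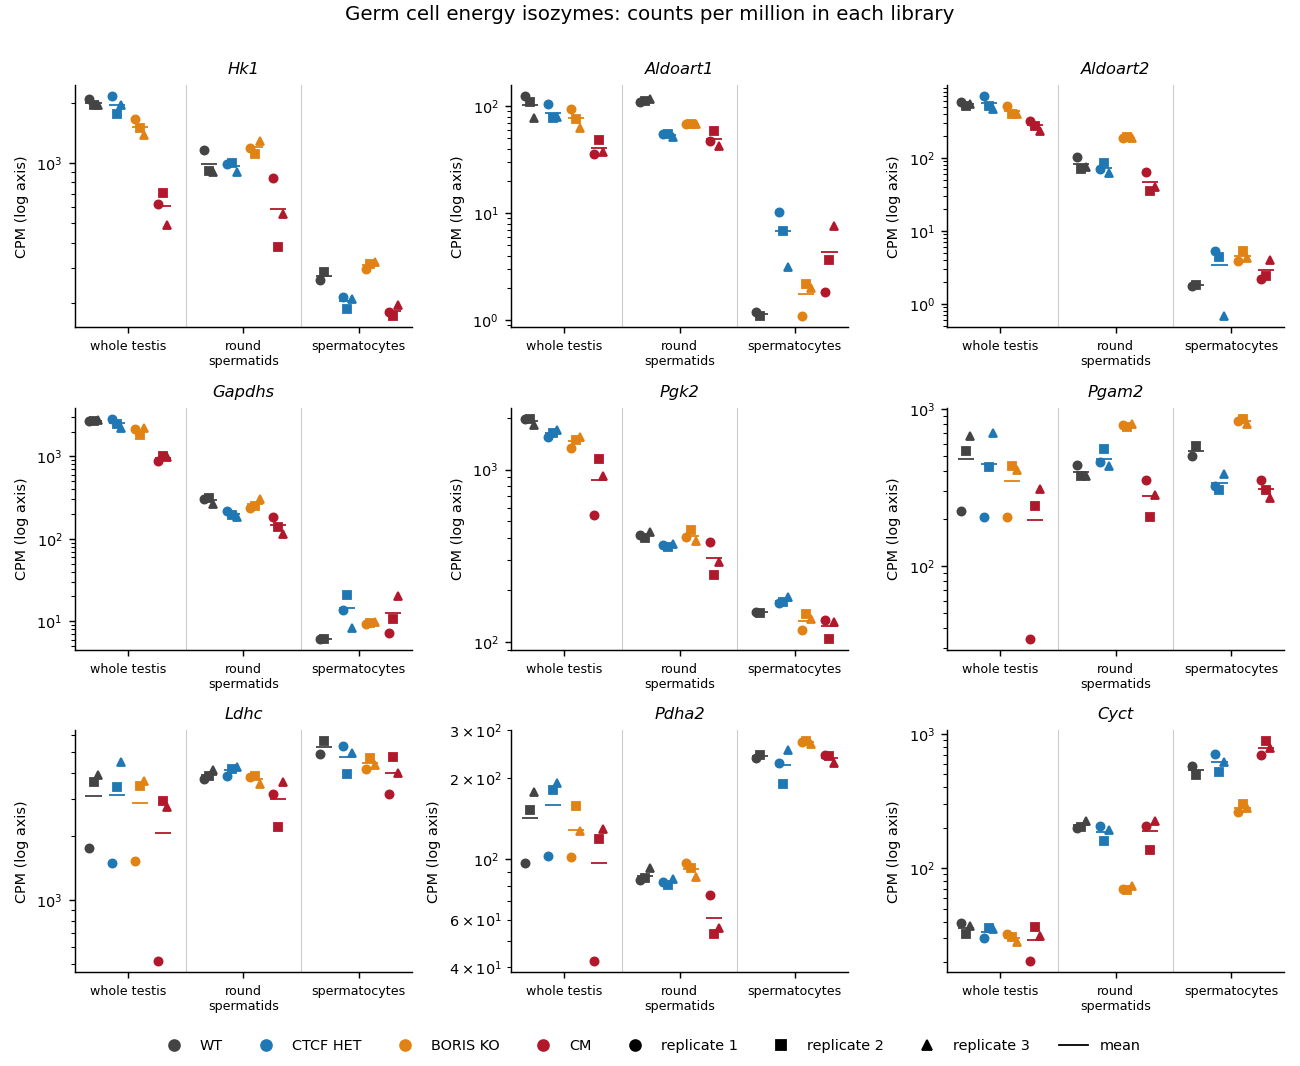
Level of each member in CPM in all 35 libraries on log axes, 1 panel per gene, with colour for the genotype, symbol for the replicate number and a bar at the mean. In whole testis the CM points of Hk1, Aldoart1, Aldoart2, Gapdhs and Pgk2 lie below all others, replicate 1 is the lowest point of each genotype in Ldhc, Pgam2 and Pdha2, and Cyct is lowest in BORIS KO among sorted cells.

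Markers of other cells moved in the same libraries. Of 8 spermatid markers 3 were lower in CM whole testis, and their summed level was 3844 to 12155 CPM against 14001 to 22738 in WT, with all 8 detected. The 6 spermatocyte markers summed to 210 to 349 CPM against 294 to 364, with 1 called lower. Leydig cell markers summed to 1739 to 3441 CPM against 356 to 558 (4 of 6 called higher), Sertoli markers to 106 to 277 against 59.9 to 95.7 (2 of 5), and spermatogonial markers to 117 to 403 against 54.4 to 71.0 (2 of 7). Of 6 macrophage markers 4 were called higher, with a median log2 fold change of 1.95, while their summed level stayed within 469 to 659 CPM in WT and CM. The haemoglobin genes were at 0 in CM. In bulk RNA fewer cells of a type and less RNA per cell cannot be told apart, and the part of these shifts in the members' fall was not tested.

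In round spermatids the 9 members moved in different directions in BORIS KO. Aldoart2 and Pgam2 rose, Cyct and Aldoart1 fell, and the other 5 were not called. Of 15513 genes tested 26.8% were called higher and 29% lower, and the 2 calls in each direction among 9 members are a smaller share. The members' median log2 fold change was -0.05.

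Cyct had the largest change. It stood at 198, 203 and 226 CPM in WT and 69.6, 68.4 and 73.7 CPM in BORIS KO, a 3.02-fold fall (log2 -1.60 ± 0.09 SE, adjusted p = 5e-06). The CTCF HET libraries at 205, 159 and 193 CPM and the CM libraries at 206, 136 and 225 CPM overlapped WT, although CM mice lack BORIS too. Spermatocyte markers were low in the same libraries, at 445 to 458 CPM in sum in BORIS KO round spermatids against 1198 to 1636 in WT, 726 to 1159 in CTCF HET and 1460 to 2529 in CM, with 5 of 6 called lower. Cyct is itself higher in WT spermatocytes, and the part of this shift in its fall was not tested.

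Aldoart2 stood at 102, 69.9 and 74.6 CPM in WT and at 186, 192 and 186 CPM in BORIS KO, 2.24-fold higher (log2 1.16, adjusted p = 0.000118). Its paralog Aldoart1 went the other way, from 109, 111 and 118 CPM to 68.1, 68.9 and 68.3 CPM (log2 -0.75, adjusted p = 0.000136). Pgam2, the mutase of lower glycolysis, rose from 442, 374 and 374 CPM to 786, 763 and 801 CPM (1.93-fold, adjusted p = 2.88e-05). No BORIS KO library overlapped WT in these 3 genes. Hk1 was not called at a log2 of 0.24 (adjusted p = 0.0721), and without WT replicate 1 it was (0.36, adjusted p = 0.00149). Gapdhs and Ldhc became called without BORIS KO replicate 3 and WT replicate 1 in turn (log2 -0.29 and -0.13, adjusted p = 0.0491 and 0.0486).

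In CTCF HET round spermatids Aldoart1 and Gapdhs fell, 2 of 9 members where 12.8% of genes were called lower. Aldoart1 was at 54.8, 55.6 and 51.7 CPM against 109, 111 and 118 in WT (2.1-fold, log2 -1.07 ± 0.10 SE, adjusted p = 0.00236). Gapdhs was at 215, 194 and 185 CPM against 302, 314 and 268 (log2 -0.59, adjusted p = 0.00769). Both ranges lay apart from WT. Summed spermatid markers were also lower, at 855 to 924 CPM against 1216 to 1377, with 5 of 8 called lower, and their part in these falls was not tested. Pgam2 was not called (log2 0.27) but was without WT replicate 1 (0.35, adjusted p = 0.041).

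CM round spermatids had all 9 log2 fold changes below 0, from -1.14 in Aldoart1 to -0.10 in Cyct, with a median of -0.48. Every CM library lay below every WT library in 7 members, all but Ldhc and Cyct on the scale of this fit, as in 15.3% of all genes tested. Aldoart1 was at 47.3, 58.6 and 42.5 CPM, Gapdhs at 182, 140.1 and 113 CPM and Hk1 at 839, 381 and 558 CPM, against 1161, 908 and 906 CPM for Hk1 in WT. None of the 9 was called by edgeR, nor were more than 0.00654% of genes. An unadjusted p under 0.05 was found in 5 members and in 3136 of 15298 genes. DESeq2 called 2 members (Aldoart1 and Gapdhs) and 1721 genes. CM replicate 1 was the highest of its group in Aldoart2, Gapdhs, Pgk2, Pgam2, Hk1 and Pdha2, and without it Gapdhs (log2 -1.13, adjusted p = 0.0435), Aldoart1 (-1.07, 0.0451) and Aldoart2 (-1.06, 0.0474) were called. The share of all genes called without that library is not given here. With all 4 genotypes in 1 fit 5 members were called, and 2899 genes in place of 1. Summed spermatid markers were at 492 to 776 CPM against 1216 to 1377 in WT, and spermatogonial markers at 37.6 to 380 CPM against 23.9 to 29.9. Their part in the members' levels was not tested.

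In spermatocytes BORIS KO gave 7 calls among the 9 members, 5 higher and 2 lower, where 29.1% of 14338 genes were called higher and 28.1% lower. The changes were mostly small. Aldoart2 was at 1.78 and 1.83 CPM in WT and 3.83, 5.34 and 4.33 CPM in BORIS KO (2.49-fold, log2 1.32, adjusted p = 2.32e-05). Cyct was at 576 and 498 CPM in WT and 262, 299 and 283 CPM in BORIS KO (1.91-fold lower, log2 -0.93, adjusted p = 2.77e-06), so it was the member that fell in both sorted cell types of this genotype. Gapdhs was at 6.11 and 6.13 CPM in WT and 9.32, 9.55 and 9.80 in BORIS KO (log2 0.64, adjusted p = 7.19e-05).

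Pgam2 was at 502 and 583 CPM in WT and 845, 868 and 799 CPM in BORIS KO spermatocytes (log2 0.63, adjusted p = 2.61e-05), and none of these ranges overlapped. The 3 other calls were Hk1 (0.18), Pdha2 (0.17) and Ldhc (-0.25), with adjusted p between 0.02 and 0.0274. Each of these 3 lost its call without 1 library. Hk1 was not called without WT replicate 1 or BORIS KO replicate 2 or 3 (adjusted p = 0.0881 to 0.194), Pdha2 without WT replicate 1 or 2 or BORIS KO replicate 2 or 3 (0.0517 to 0.095) and Ldhc without WT replicate 2 (0.216). Aldoart1 was called without BORIS KO replicate 1 (log2 0.87, adjusted p = 2.44e-05) and Pgk2 without BORIS KO replicate 2 (-0.22, 0.0392). Spermatocyte markers were low in these libraries, at 1972 to 2018 CPM in sum against 3372 to 4305 in WT, with 5 of 6 called lower, and spermatid markers summed to 36.7 to 55.9 CPM against 32.0 to 32.4, with 2 of 8 called higher. Their part in these changes was not tested. With all genotypes in 1 fit 2 members kept a call, Pgam2 and Cyct, and 2219 genes were called in place of 8207.

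In CTCF HET spermatocytes Aldoart1 rose from 1.19 and 1.08 CPM in WT to 10.3, 6.86 and 3.13 CPM (5.98-fold, log2 2.58 ± 0.57 SE, adjusted p = 0.0251), while Pgam2 fell from 502 and 583 CPM to 325, 305 and 383 CPM (log2 -0.69, adjusted p = 0.0111) and Hk1 from 262 and 285 to 215, 188 and 210.1 CPM (log2 -0.42, adjusted p = 0.027). These are 1 higher and 2 lower calls where 6.77% of genes were called higher and 8.76% lower, and none of the 3 was called without CTCF HET replicate 1 or replicate 2. Hk1 also lost its call without CTCF HET replicate 3, without WT replicate 2 and under the other scaling, RLE (adjusted p = 0.0516). With RLE 54.4% of called genes were higher, against 43.6% with TMM. Gapdhs and Aldoart2 were called without CTCF HET replicate 3 (log2 1.52 and 1.44, adjusted p = 0.0386 and 0.0428). Summed spermatid markers were at 50.9 to 86.8 CPM in CTCF HET spermatocytes against 32.0 to 32.4 in WT, with 3 of 7 called higher, and Aldoart1 and Gapdhs are high in spermatids. Spermatocyte markers summed to 4943 to 5408 CPM against 3372 to 4305, with 3 of 6 called higher. The part of both in these changes was not tested.

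CM spermatocytes had 0 of 9 members called by edgeR, with 0.604% of genes called. An unadjusted p under 0.05 was found in 5 members and in 4391 of 14747 genes. DESeq2 called 4 members and 3162 genes. Aldoart1, Gapdhs, Aldoart2 and Cyct had every CM library above both WT libraries, as in 25.1% of all genes tested, and Hk1, Pgk2, Pgam2 and Ldhc had every CM library below, as in 28.7%. Aldoart1 was at 1.85, 3.61 and 7.53 CPM and Cyct at 701, 884 and 789 CPM. Pgam2 was at 352, 306 and 269.6 CPM. Without CM replicate 1, 5 members were called: Pgam2 (log2 -0.87, adjusted p = 0.00376), Cyct (0.68, 0.00578), Aldoart1 (2.34, 0.00984), Hk1 (-0.53, 0.0105) and Gapdhs (1.37, 0.0223). The share of all genes called without that library is not given here, so these calls have no background. Summed spermatid markers ranged from 34.7 to 109 CPM in CM, against 32.0 to 32.4 in WT, and spermatocyte markers from 4681 to 7571 CPM against 3372 to 4305, with none of either called. Their part in these levels was not tested.

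**Figure D3:**
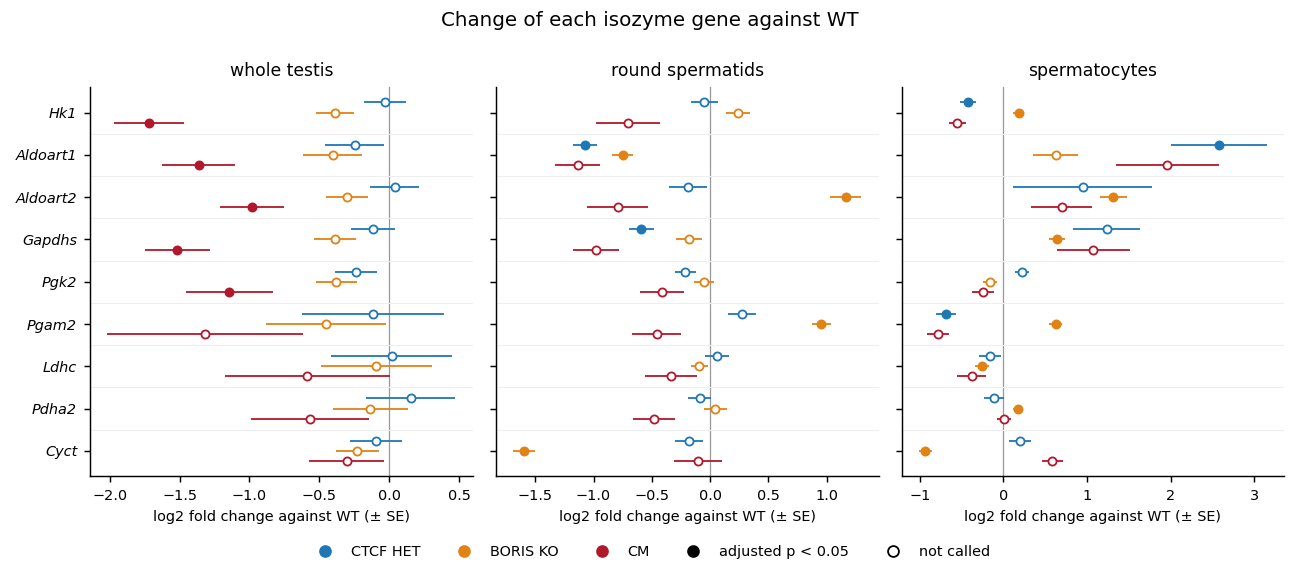
Log2 fold change against WT with its standard error for each member in CTCF HET, BORIS KO and CM, in whole testis, round spermatids and spermatocytes, with filled points for an adjusted p under 0.05. The filled points are the 5 CM falls in whole testis, and among sorted cells they include Cyct at -1.60 and -0.93 and Aldoart2 at 1.16 and 1.32 in BORIS KO.

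Across the 10 comparisons between genotypes Aldoart1 was called in 4, Gapdhs, Pgam2, Aldoart2 and Hk1 in 3, Cyct in 2, and Pgk2, Ldhc and Pdha2 in 1 each. Ldhc, the most abundant member per length in sorted cells, ranged from 2208 to 4269 CPM over all 12 round spermatid libraries.

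Of 12 tested somatic relatives of the members, 8 rose and none fell in CM whole testis, where 16.4% of all genes were called higher, with a median log2 fold change of 1.44: Aldoc (2.98), Gapdh (2.12), Ldhb (1.95), Pgam1 (1.57), Pdha1 (1.54), Hk3 (1.51), Cycs (1.37) and Pgk1 (0.95). Aldoa (-0.61), Ldha (-0.41) and Hk2 (0.54) were among those not called. These values carry more doubt than the members' values do. Of the 13 relatives 5 have copies elsewhere in the genome that reads could be shared with: 91.4% of the 75-base stretches of Pgk1, 88.9% of Pgam1, 85.4% of Gapdh, 36.2% of Cycs and 19.3% of Ldhb. Among the 7 tested without many copies 3 rose. The Leydig, Sertoli and spermatogonial markers given above rose in the same libraries, and their part was not tested.

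In BORIS KO round spermatids 7 of 13 relatives rose and none fell, among them Aldoc (1.66), Hk3 (1.16), Gapdh (1.10), Pgam1 (1.01), Ldha (0.94) and Aldoa (0.85), and 5 of the 8 without many copies. In BORIS KO spermatocytes 4 of 11 rose, among them Pgam1 (0.79), Ldha (0.46) and Aldoa (0.42).

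**Figure D4:**
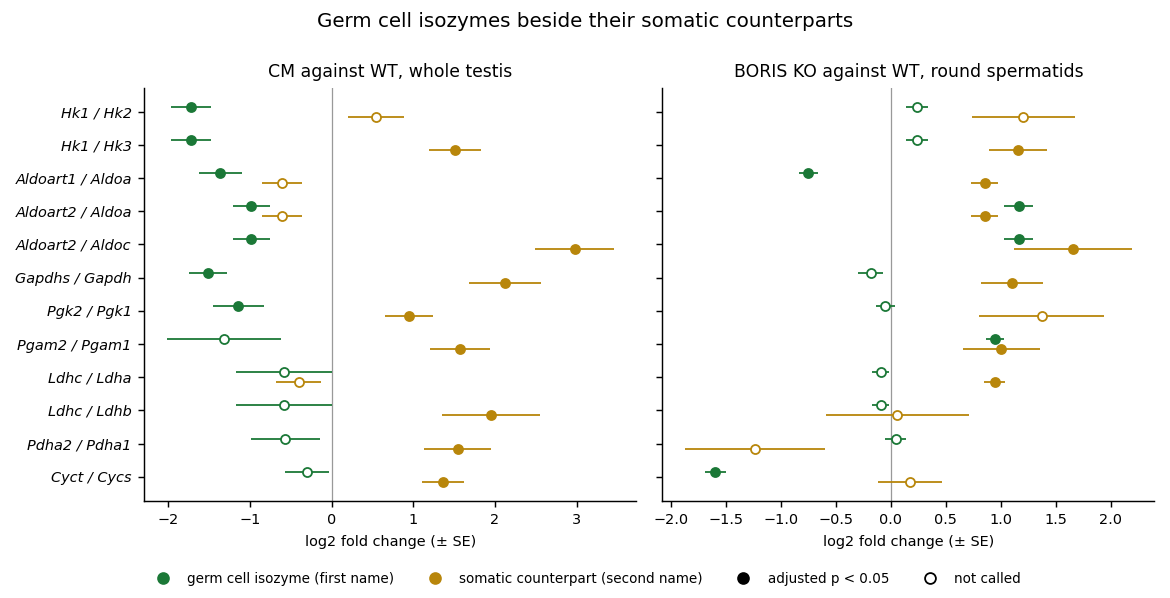
Log2 fold change with its standard error for each germ cell isozyme and its somatic relative (names given as isozyme, then relative), in CM whole testis and BORIS KO round spermatids, with filled points for an adjusted p under 0.05. In CM whole testis the called isozymes lie between -1.72 and -0.98 and the called relatives between 0.95 and 2.98.

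Other genes of the pathway were read by list. The counts for CM whole testis stand beside 8.8% of all genes called lower and 16.4% called higher there. In CM whole testis 3 of 10 other glycolytic enzymes fell (Gpi1 by 1.33, Tpi1 by 0.93 and Eno4, a sperm enolase, by 0.81 on the log2 scale) and none rose, with a median of -0.74. Of the other germ cell isoforms of energy metabolism 3 of 9 fell (Atp1a4 by 1.25 and the ketone body enzymes Oxct2b by 1.10 and Oxct2a by 1.02) and none rose, with a median of -0.73. In the pyruvate dehydrogenase complex and its regulators 3 of 10 rose, the kinases Pdk4 (2.52) and Pdk1 (1.11) and the phosphatase Pdp2 (1.68). Transporters were mixed, with 3 of 11 higher (among them the lactate carrier Slc16a1 at 1.73 and its partner Emb at 1.24) and 2 lower (among them the fructose carrier Slc2a5 at -1.02).

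In BORIS KO round spermatids 4 of 10 other glycolytic enzymes rose and none fell, led by Pfkl (1.42) and Eno3 (1.23). Of the germ cell isoforms 4 of 9 rose (Oxct2b 1.73, Cox6b2 1.56, Oxct2a 1.41 and Cox8c 1.15) and Cox7b2 fell (-0.66). The pyruvate dehydrogenase list fell in 5 of 9, with Dld, its dihydrolipoamide dehydrogenase, at -1.57 and Pdk1 at -1.31, and 6 of 11 transporters rose, led by the glucose carrier Slc2a8 (2.41) and Slc16a3 (1.08), with 1 lower. In BORIS KO spermatocytes the same lists gave 5 of 10 higher (Eno2 1.10), 3 of 9 higher and 1 lower (Oxct2a 1.21, Oxct2b 1.14), 3 of 9 lower, and 7 higher and 2 lower of 11 (Slc2a1 2.02, Slc2a8 1.10 and Slc16a1 -1.31). These counts stand beside the shares of 26.8% and 29.1% higher and 29% and 28.1% lower given above for all genes.

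The genes whose levels followed the mean of the members most closely over the 12 whole testis libraries were 4933425O20Rik and 4933415F23Rik (Pearson's r of 0.99 each) and Theg, a spermatid gene (0.988). Of 17176 genes 4.4% had an r above 0.9, since all genes share the genotypes and libraries. Set against the mean of the other 8 members, Pgk2 came closest (0.977) and Aldoart2 was furthest (0.638). Over the 12 round spermatid libraries 1700061G19Rik, Ttll9 and Aif1 came closest (0.987, 0.985 and 0.983, the last a gene of the macrophage marker list), and Cyct went against the mean of the other members (-0.379).

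The peak lists place RNA polymerase II (Pol2) and H3K4me3, a histone mark of active starts, at almost every member in germ cells of WT and CM testis. There is 1 list per antibody and genotype, so these values have no replicate error, and heights and scores are set side by side without a known common scale. A Pol2 peak lay within 2 kb of the start of all 9 members in both genotypes, against 39.1% of 20073 protein-coding genes in WT and 46.6% in CM. H3K4me3 marked the start region of 8 members in WT, all but Aldoart1, and of all 9 in CM, against 52.4% and 56.8%. Counts of CTCF and BORIS peaks are likewise given beside the share of all genes. Within 2 kb of the gene 4 members had a WT CTCF peak (Gapdhs, Aldoart2, Hk1 and Cyct) against 51.5% of genes, 3 had one in CM against 34.6%, and 1, Gapdhs, had a WT BORIS peak against 22.8%. At starts these counts were 2, 2 and 0, against 27.3%, 9.86% and 14%.

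Pol2 scores over the start were lower in CM than in WT at 5 of the 9 members. The same held for 33.1% of the 7077 genes with a start peak in both lists. The members' scores went from 783 to 416 at Hk1, 756 to 190 at Aldoart2, 859 to 380.1 at Gapdhs, 1607 to 834 at Pgk2 and 716 to 276 at Pgam2. The peak at the internal start of Gapdhs went from 2686 to 1196. Ldhc stood at 3100 in both, a score shared by 209 peaks of the WT list and 168 of the CM list, so it may be a ceiling and no change can be read from it. The CM list splits the Ldhc peak, and the second piece scored 2007. The scores of Aldoart1 (70.7 and 74.6), Pdha2 (1175 and 1747) and Cyct (132 and 268) were not lower. The CM to WT ratio was between 0.251 and 0.53 at the 5 members named first, against a median of 1.26 over the 7077 genes with a start peak in both lists, of which 11% were at 0.6 or less. H3K4me3 scores over the start went from 499 to 481 at Hk1, 295 to 243 at Aldoart2, 674 to 1025 at Pgk2 and 372 to 409 at Pgam2. At Pdha2 they went from 1203 to 1161 and at Cyct from 229 to 331. The median ratio was 1.35 over 8448 genes, of which 24.9% were below 1. At Gapdhs no WT peak covered the start itself, the peak just upstream scored 473 in WT and the CM peak over the start 296, and the strongest peak within the gene went from 1281 to 784. At Ldhc the WT score was again 3100 and the CM score 2204, and Aldoart1 had a peak of 127 in CM alone.

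CTCF peaks lay upstream of Aldoart2 and Cyct and within Hk1. The peak 509 bases upstream of Aldoart2 had a height of 1348 in WT and 512 in CM, and that 1885 bases upstream of Cyct 1337 and 460, where the medians of the lists were 491 and 316. Both windows are printed above. That of Aldoart2 holds the AGNNGGC letters at 2 places, as does the window of the peak upstream of Gapdhs, which is not printed. A second peak of height 182 over the start of Aldoart2 was not listed in CM. In Hk1 the peak at chr10:61737407-61738687 had heights of 494 and 359, and weaker peaks at chr10:61791766-61791973 (110) and chr10:61821696-61821863 (128) were not listed in CM. The CM list holds no peak under a height of 100, and neither does the WT list, so an unlisted peak may lie just under that limit.

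The BORIS peak at Gapdhs, chr7:31514443-31514576 with a height of 72, lay at the 3′ end of the gene inside a WT CTCF peak (chr7:31514263-31515314, height 213) that was not listed in CM, and both cover the start of the neighbouring gene Tmem147. Another CTCF peak 4017 bases upstream of Gapdhs (height 102) was absent from the CM list too. An internal start of Hk1 near chr10:61803169 is shared with the opposite-strand transcript 2210417K05Rik, whose exons overlap those of Hk1 by 157 bases. H3K4me3 there scored 233 in WT and 369.99 in CM, and Pol2 was listed in CM alone (89.6). Use of strand in counting is not given in the sources used here, so reads of these 2 transcripts could be mixed over those bases.

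**Figure D5:**
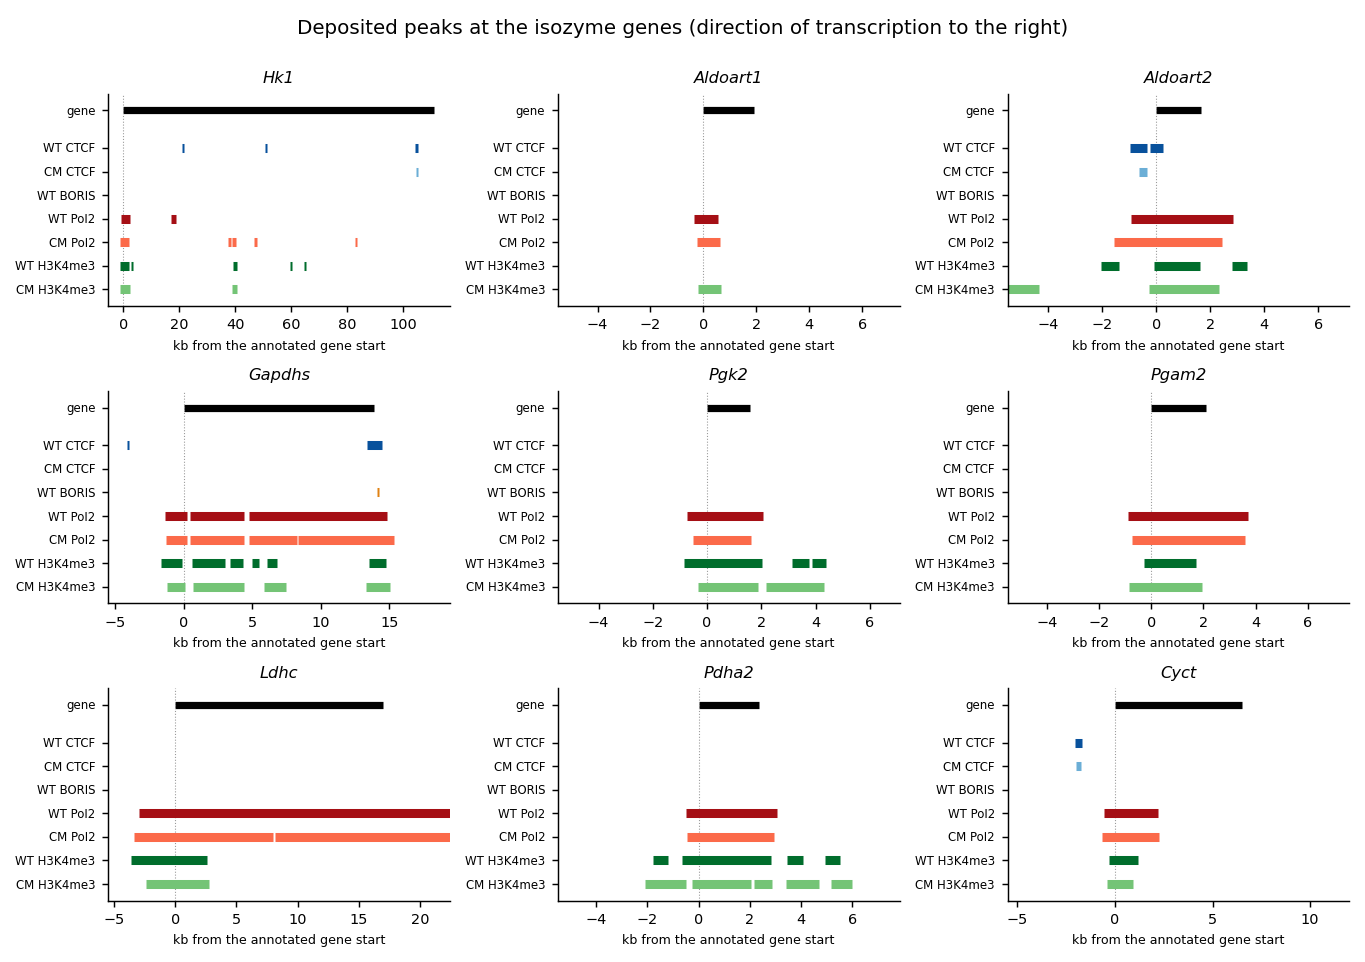
Deposited peaks of each list drawn by distance in kilobases from the annotated start of each member, with the gene as a black bar and transcription to the right. Peaks narrower than the plotting line are widened to be visible. Pol2 covers the start of all 9 genes in WT and CM, CTCF peaks are drawn at Hk1, Aldoart2, Gapdhs and Cyct, and the WT CTCF peaks of Gapdhs have no CM counterpart.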

How the data were processed

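The authors deposited raw counts per gene symbol for each library and did not pool replicates. Whole testis RNA was rRNA-depleted and sequenced on an Ion Proton (TopHat2, Bowtie2), and sorted cell RNA was poly(A)-selected and sequenced on a HiSeq2000 (STAR), both on mm9. The counting tool, annotation and use of strand are not given in the sources used here. The authors called peaks with MACS and PeakSplitter, and the deposited lists give a signal (the peak height) for CTCF and BORIS and a MACS score for Pol2 and H3K4me3, 1 list per antibody and genotype.

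Counts were tested with edgeR 4.0.16 in R 4.3.3 (robust quasi-likelihood F test, filterByExpr with a minimum count of 10 and total of 15, TMM scaling, Benjamini-Hochberg adjustment over all genes tested). Only the groups compared entered a fit, except for the interaction, and a gene was called at an adjusted p under 0.05. The study's rule, DESeq2 at 0.001 and a fold change above 2, was run as an alternative with DESeq2 1.42.0, among the other alternatives given at the end. Printed CPM are TMM-scaled within a preparation, and those of WT round spermatids against spermatocytes within that fit, and RPKM use the union of exons. Likeness used log2(CPM + 1). A locus was the gene with 2 kb on each side, and a peak counted with 1 shared base. Sequence work used Python 3.11.15 and biopython 1.88.

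Whole testis libraries with the same replicate number deviated together in 18 of 18 pairs (r = 0.179 to 0.717), so the numbers pair them. Round spermatids (9 of 18 pairs over 0.1) and spermatocytes (2 of 15) did not pair. The members, the lists and the threshold were chosen with earlier results of these data known. All members are named. Other genes are named where called with a log2 change above 1 in size (at most 4 per list and comparison, by adjusted p) or as somatic relatives, and genes with smaller changes in short counts were named after their values were seen. The values of 1 listed gene are not reported here.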

Additional observations from a re-analysis of the deposited data

Results flagged for a closer look

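Several members moved one way in every library of one preparation and the opposite way in every library of another, or in opposite ways in different genotypes. In none of these cases was the difference tested, because whole testis and sorted cells were made by different methods and no fit joined the cell types by genotype. All values are log2 fold changes against WT.

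In CM, Gapdhs was at -1.52 in whole testis and -0.98 in round spermatids but 1.08 in spermatocytes, Aldoart1 at -1.36, -1.14 and 1.96, and Aldoart2 at -0.98, -0.79 and 0.70. In CTCF HET, Gapdhs was at -0.59 in round spermatids and 1.24 in spermatocytes, Aldoart1 at -1.07 and 2.58, and Pgk2 at -0.24 in whole testis, -0.21 in round spermatids and 0.22 in spermatocytes. In BORIS KO, Aldoart2 was at -0.30 in whole testis, 1.16 in round spermatids and 1.32 in spermatocytes, Gapdhs at -0.39 in whole testis and 0.64 in spermatocytes, and Hk1 at -0.39 and 0.18.

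Between genotypes, spermatocytes of CTCF HET and BORIS KO went opposite ways in Pgam2 (-0.69 and 0.63), Hk1 (-0.42 and 0.18) and Pgk2 (0.22 and -0.16). WT spermatocytes hold 1.06 CPM of Aldoart1, 1.69 of Aldoart2 and 5.74 of Gapdhs on average, so the rises of these 3 genes there start from a low level.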

How the results depend on the processing

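Of 1242 values of a member under an alternative, 1107 kept direction and side of the threshold, 54 became called, 45 lost the call and 36 changed sign, none of them of a called value. The cause of these changes was not tested. At an adjusted p under 0.001 and a fold change above 2, edgeR called 0 members in CM testis (5 in the report), 0 in CTCF HET round spermatids (2), 2 in BORIS KO round spermatids (4), 0 in CTCF HET spermatocytes (3) and 1 in BORIS KO spermatocytes (7). DESeq2 at an adjusted p under 0.05 called 5 in CM testis, as edgeR did. It called 3 in CM against BORIS KO, 2 in CM round spermatids, 5 in CTCF HET spermatocytes, 4 in CM spermatocytes and 2 for the interaction. DESeq2 with that stricter rule, chosen after seeing the data, called 1 in CM against BORIS KO, 1 in CTCF HET round spermatids, 2 in BORIS KO and 1 in CM round spermatids, and 1 each in CTCF HET and BORIS KO spermatocytes. Its count of members in CM testis is not given here, where it called 1635 of all genes. With all groups in 1 fit the counts were 2 in CM against BORIS KO, 1 and 5 in CTCF HET and CM round spermatids, and 2 and 3 in BORIS KO and CM spermatocytes. Gapdhs in CTCF HET round spermatids (adjusted p = 0.102) and, without a filter, Aldoart1 in CTCF HET spermatocytes (adjusted p = 0.059) lost their calls. With the replicate block 1 member was called in BORIS KO testis, 3 in CM against BORIS KO and 4 in BORIS KO spermatocytes. The block changed the calls of members named in the report, and also called Hk1 in BORIS KO round spermatids (0.0421) and Gapdhs in CTCF HET spermatocytes (0.0112). Without replicate 1 of every group, chosen after seeing the data, 1 was called in BORIS KO testis and 2 in CM against BORIS KO. Leaving out 1 library gave 0 to 5 in CM testis, 0 to 2 in CM against BORIS KO, 2 to 3, 4 to 6 and 0 to 3 in CTCF HET, BORIS KO and CM round spermatids, 0 to 4, 5 to 8 and 0 to 5 in their spermatocytes, and 8 to 9 between the cell types.

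Over all genes, DESeq2 called 3 for 1 in CTCF HET testis, 376 for 9 in BORIS KO testis, 1134 for 1 in CM against BORIS KO, 1721 for 1 in CM round spermatids, 3162 for 89 in CM spermatocytes and 29 for 0 in the interaction. The block gave 42, 1077, 7043 (for 4135), 1225 and 4 in CTCF HET, BORIS KO and CM testis, CM against BORIS KO and the interaction. The stricter edgeR rule gave 0 in BORIS KO and CM testis, CM against BORIS KO, CM round spermatids and CTCF HET (2119) and CM spermatocytes, 1 in CTCF HET round spermatids (3405), 2404 in BORIS KO round spermatids (8658), 684 in BORIS KO spermatocytes (8207) and 5726 between the cell types (11237). With DESeq2 these became 51, 1635, 47, 136, 454, 392, 532, 3346, 700 and 7085 in the same order. With all groups in 1 fit 379 genes were called in CM against BORIS KO, 480, 5014 and 2899 in CTCF HET, BORIS KO and CM round spermatids and 3231, 2219 and 2002 in their spermatocytes. Without a filter 20 were called in BORIS KO testis and 1376 in CTCF HET spermatocytes, and without replicate 1 of every group 2, 1813 and 413 in CTCF HET testis, BORIS KO testis and CM against BORIS KO.

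Signs changed only in values up to 0.153 in size. Leaving out 1 library gave, in CTCF HET testis, -0.36 to 0.36 for Ldhc, -0.63 to 0.24 for Pgam2, -0.12 to 0.13 for Aldoart2, -0.083 to 0.40 for Pdha2, -0.080 to 0.035 for Hk1 and -0.17 to 0.0023 for Cyct. It gave -0.36 to 0.22 for Ldhc and -0.33 to 0.073 for Pdha2 in BORIS KO testis, -0.25 to 0.15 for Cyct in CM against BORIS KO and -0.13 to 0.23 for Cyct in the interaction. In round spermatids it gave -0.10 to 0.069 for Hk1 in CTCF HET, -0.098 to 0.011 for Pgk2 in BORIS KO and -0.26 to 0.055 for Cyct in CM, and in spermatocytes -0.19 to 0.022 and -0.048 to 0.044 for Pdha2 in CTCF HET and CM. Without a filter Ldhc was at -0.0043 in CTCF HET testis and 0.029 in BORIS KO round spermatids, Pgk2 at 0.071 there and Pdha2 at -0.014 in CM spermatocytes (-0.018 with all groups). With the replicate block Ldhc was at -0.043 in CTCF HET testis. Without replicate 1 of every group Aldoart2 was at -0.10 and Cyct at 0.036 in CTCF HET testis, and Cyct at 0.17 in CM against BORIS KO. The members' summed CPM in a WT round spermatid library averaged 6489 and was 5856 with library totals. Among peaks above the median height the locus of Gapdhs held no BORIS peak (0 loci against 1). Low counts of Aldoart1 and Aldoart2 in spermatocytes limit their precision there.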
